A study of Homo sapiens with 6 samples.

Results

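The IFIT genes (interferon-induced proteins with tetratricopeptide repeats) were taken by symbol from the expression table. All 5 human members, *IFIT1*, *IFIT1B*, *IFIT2*, *IFIT3* and *IFIT5*, were among its 19225 genes, and 4 of them, all but *IFIT1B*, had the mean of at least 0.5 FPKM that testing asked for, as did 12884 genes in all. FPKM divides the reads of a gene by its length and by the size of the library. The libraries came from SW480, a long-established line of colon cancer cells that carries mutant p53, in which the study asked what MDM4 does to transcript levels. 3 control libraries and 3 libraries of cells transiently transfected with plasmids encoding MDM4, a negative regulator of p53, were sequenced, and replicates of either group are numbered 1 to 3. The sample titles name no plasmid for the control group and do not say whether the replicates were separate cultures. The p-values therefore measure the spread between these libraries, which may be technical. Values of single libraries are given below in the order of replicates 1, 2 and 3. The reads on listed genes numbered 44563310, 35522729 and 40086249 in control and 36274392, 34586748 and 32922845 with MDM4. Across all genes the third replicate of each group differed from the first and second, so each IFIT result is given over all 6 libraries, over replicates 1 and 2 alone, and as the difference between these.

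IFIT proteins are cytosolic RNA-binding proteins built of helical repeats, and their genes are among the first to be transcribed after interferon or viral RNA is sensed. Interferons act through Janus kinases on STAT factors, which join IRF9 and bind the interferon-stimulated response element (ISRE) in the promoters of such genes. IFIT1 binds viral RNA whose cap lacks ribose methylation and keeps it from being translated, IFIT3 binds IFIT1 and stabilises it, IFIT2 also joins these complexes and has been linked to apoptosis, and IFIT5 binds RNA with a triphosphate end as well as some cellular RNA. IFIT1B is a close paralogue of IFIT1. In epithelial tumour cells, low levels of these transcripts can be present without infection.

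The genes stand side by side on the plus strand of chromosome 10, from position 89283694 to 89421001 of GRCh38 in GENCODE release 29, a stretch of 137.3 kb. *IFIT2* runs from 89283694 to 89309276, *IFIT3* from 89327894 to 89340971, *IFIT1B* from 89378056 to 89385205, *IFIT1* from 89392546 to 89406486 and *IFIT5* from 89414586 to 89421001. *LIPA*, which encodes lysosomal acid lipase, lies on the minus strand from 89213569 to 89414557 and so spans the first 4 of them. The promoters of the members in the RefSeq table (GRCh38.p14, plus strand, 250 bases before to 50 after the start) are shown because all of the tested members listed there carry copies of the ISRE core. This was searched for as GAAA and GAAA with any 2 bases (NN) between them, or as TTTC, NN and TTTC on the other strand. The core is in capitals, and each window is 300 bases long. *IFIT2* has no entry in the table, and *IFIT3* has 2, for a pair of start sites.
IFIT1, chr10:89392373-89392672: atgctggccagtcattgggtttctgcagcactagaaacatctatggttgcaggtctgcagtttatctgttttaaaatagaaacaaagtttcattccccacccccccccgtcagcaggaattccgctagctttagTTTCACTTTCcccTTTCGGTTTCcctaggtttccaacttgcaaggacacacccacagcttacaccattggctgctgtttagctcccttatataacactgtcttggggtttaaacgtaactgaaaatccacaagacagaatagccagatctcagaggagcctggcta
IFIT3, chr10:89327747-89328046: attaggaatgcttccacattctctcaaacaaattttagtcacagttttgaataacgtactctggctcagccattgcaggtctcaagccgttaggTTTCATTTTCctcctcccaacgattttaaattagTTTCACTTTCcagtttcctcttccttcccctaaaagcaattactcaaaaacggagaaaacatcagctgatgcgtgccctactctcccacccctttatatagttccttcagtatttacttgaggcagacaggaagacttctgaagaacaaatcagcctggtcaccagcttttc
IFIT3, chr10:89332279-89332578: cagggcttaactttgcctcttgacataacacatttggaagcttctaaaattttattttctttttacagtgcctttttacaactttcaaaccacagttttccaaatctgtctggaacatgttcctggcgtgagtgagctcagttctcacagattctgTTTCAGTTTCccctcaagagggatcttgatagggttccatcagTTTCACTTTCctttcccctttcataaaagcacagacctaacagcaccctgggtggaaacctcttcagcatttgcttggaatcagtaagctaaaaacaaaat
IFIT5, chr10:89414318-89414617: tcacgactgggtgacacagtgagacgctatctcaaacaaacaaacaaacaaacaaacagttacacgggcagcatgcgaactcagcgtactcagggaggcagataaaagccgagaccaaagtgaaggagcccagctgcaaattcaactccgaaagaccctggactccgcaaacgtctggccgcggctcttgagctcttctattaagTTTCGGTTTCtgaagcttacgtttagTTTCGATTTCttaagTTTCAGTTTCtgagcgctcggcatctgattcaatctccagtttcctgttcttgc
IFIT1B, chr10:89377806-89378105: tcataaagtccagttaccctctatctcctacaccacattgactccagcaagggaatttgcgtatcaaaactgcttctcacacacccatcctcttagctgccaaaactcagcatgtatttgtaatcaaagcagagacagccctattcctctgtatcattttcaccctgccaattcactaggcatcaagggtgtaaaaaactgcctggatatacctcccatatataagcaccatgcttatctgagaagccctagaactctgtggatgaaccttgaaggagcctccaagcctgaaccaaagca

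*IFIT1* has 2 copies of the core, which begin 116 and 103 bases before the start. The first *IFIT3* window has 2, at 156 and 122 bases before the start, and the second has 2, at 94 and 51. *IFIT5* has 3, which begin 45, 19 and 4 bases before its start, and *IFIT1B* has 0 in this window. All of these matches are in the TTTC orientation. Among the 35116 windows of the table, 3.57% hold at least 1 copy, 0.259% at least 2 and 0.037% at least 3, without regard to overlap between matches. Of the 73 windows of other interferon-stimulated genes, 53.4% hold at least 1 copy and 21.9% at least 2. A match to these letters is a description of the sequence and not a bound site.

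*MDM4*, the transfected gene, was at 6.35, 7.09 and 5.13 FPKM in control and at 188, 185 and 56.3 FPKM with MDM4, and the groups did not overlap. For 3 against 3 libraries 0.1 is the smallest p that an exact permutation test can give, and *MDM4* had it (two-sided). Its log2 fold change was 4.33 over all 6 libraries (limma, adjusted p = 0.161, or 4.77e-05 when replicate numbers were blocked) and 4.78 over replicates 1 and 2 (limma, adjusted p = 3.01e-11). The excess was smaller in replicate 3 than in replicates 1 and 2, with an interaction term of -1.35 on the log2 scale (limma, adjusted p = 0.00166).

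*IFIT1*, *IFIT2* and *IFIT3* were lower with MDM4 in replicates 1 and 2, by 3.19-fold to 6.96-fold, and *IFIT5* was not called in any comparison. In replicate 3 the control library had *IFIT1*, *IFIT2* and *IFIT3* levels near those of the MDM4 library. Over all 6 libraries 0 of the 4 tested members passed the test (an adjusted p below 0.05 in limma together with a change of more than 1 on the log2 scale, up or down), with a background of 0% (0 of 12884 genes called by limma, and 0 members by voom without a block). At an unadjusted p under 0.05 in limma there were 3 of the 4 members, all lower, and 222 genes in all (1.72%), of which 164 were lower (1.27%). Over replicates 1 and 2 alone 3 of 4 passed, all lower, against 0.282% of the 12746 genes tested there that were called lower. The comparison of replicates 1 and 2 was chosen with the difference of replicate 3 known. Voom, which models the reads with their precision, called *IFIT2* (log2 fold change -2.13, adjusted p = 0.0418 from limma) and *IFIT3* (-1.46, adjusted p = 0.0352 from limma) over all 6 libraries once replicate numbers were blocked, with 0.101% of genes called lower in that fit.

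*IFIT1* was at 4.95, 5.22 and 1.73 FPKM in control, from 995, 835 and 312 reads. It was at 0.746, 0.982 and 1.76 FPKM with MDM4, from 122, 153 and 261 reads. Control replicates 1 and 2 were high and the 4 other libraries low, and the groups overlapped because control replicate 3 lay just under MDM4 replicate 3. The group means were 3.97 ± 1.94 and 1.16 ± 0.530 FPKM (SD, n = 3 each; exact two-sided permutation test, p = 0.2). Over all 6 libraries the log2 fold change was -1.62 (95% interval -2.69 to -0.54, adjusted p = 1.0 from limma). Over replicates 1 and 2 alone *IFIT1* fell by 2.44 on the log2 scale (SE 0.18; limma, adjusted p = 1.68e-05), which was 6.64-fold in replicate 1 and 5.31-fold in replicate 2. In replicate 3 the 2 libraries had counting intervals of 1.54 to 1.93 and 1.55 to 1.99 FPKM (exact Poisson, 95%, counting error only) and could not be told apart at this depth.

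*IFIT2* was at 6.01, 6.83 and 1.02 FPKM in control, from 939, 851 and 143 reads. With MDM4 it was at 0.872, 0.981 and 1.31 FPKM, from 111, 119 and 151 reads. The same pair of control libraries was high, and control replicate 3 lay within the range of the MDM4 libraries. Group means were 4.62 ± 3.15 and 1.05 ± 0.226 FPKM (SD, n = 3 each; exact two-sided permutation test, p = 0.2). The log2 fold change over all 6 libraries was -1.67 (95% interval -3.17 to -0.17, adjusted p = 1.0 from limma). Over replicates 1 and 2 alone *IFIT2* had the largest change of the family and fell by 2.67 on the log2 scale (SE 0.16; limma, adjusted p = 2.89e-06), or 6.89-fold in replicate 1 and 6.96-fold in replicate 2. In replicate 3 the value was 1.29-fold higher in the MDM4 library, within overlapping counting intervals of 0.857 to 1.20 FPKM for control and 1.11 to 1.53 FPKM for MDM4.

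*IFIT3* was at 5.00, 6.14 and 2.31 FPKM in control, from 576, 563 and 239 reads. With MDM4 it was at 1.57, 1.44 and 1.85 FPKM, from 147, 129 and 157 reads. It was the 1 member with every MDM4 library below every control library (exact permutation test, p = 0.1, two-sided), a separation that 3.76% of tested genes had in this direction. Its group means were 4.48 ± 1.97 and 1.62 ± 0.206 FPKM (SD, n = 3 each), and the log2 fold change over all 6 libraries was -1.31 (95% interval -2.10 to -0.52, adjusted p = 1.0 from limma). Over replicates 1 and 2 alone it fell by 1.81 on the log2 scale (SE 0.16; limma, adjusted p = 7.95e-05), 3.19-fold in replicate 1 and 4.25-fold in replicate 2. In replicate 3 the control library was 1.25-fold above the MDM4 library, with counting intervals of 2.03 to 2.62 and 1.57 to 2.16 FPKM that overlapped.

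*IFIT5* was at 6.64, 7.05 and 3.97 FPKM in control, from 1198, 1014 and 644 reads. It was at 6.56, 5.96 and 5.53 FPKM with MDM4, from 964, 835 and 737 reads. Control replicate 3 was again the lowest control library, but the MDM4 libraries lay between it and the other two. The means were 5.89 ± 1.67 and 6.02 ± 0.520 FPKM (SD, n = 3 each; exact two-sided permutation test, p = 1.0). The log2 fold change was 0.07 over all 6 libraries (95% interval -0.44 to 0.59, adjusted p = 1.0 from limma) and -0.13 over replicates 1 and 2 alone (95% interval -0.38 to 0.12, adjusted p = 0.803 from limma). The latter interval leaves out a fall of the size seen in the other 3 tested members, whose intervals over the same libraries were -2.82 to -2.05 for *IFIT1*, -3.01 to -2.32 for *IFIT2* and -2.15 to -1.47 for *IFIT3*. In replicate 3 *IFIT5* was 1.39-fold higher in the MDM4 library, with counting intervals of 3.67 to 4.29 and 5.14 to 5.94 FPKM that did not overlap, though 1 library per group gives no replicate error.

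*IFIT1B* was listed at 0.0227 FPKM in control replicate 1 and at 0 in the other 5 libraries, so it was not tested. A single value does not fix how many reads it stands for: at the annotated length of 1972 bases it would be 2 reads, and the recovery from FPKM, which takes the shortest length that gives whole reads, put it at 1. A limit of 3 reads per library would be 0.0340 to 0.0460 FPKM. It is also the member that shares sequence with another, since 38 of the 4612 stretches of 50 bases in *IFIT1* transcripts (0.824%) occur in *IFIT1B*, and *IFIT2*, *IFIT3* and *IFIT5* share 0 with the family. Reads shared between members could therefore move few counts of *IFIT1*. With genes outside the family, which include pseudogenes and repeats, *IFIT2* shared 7.50% of its stretches, *IFIT3* 2.48% and *IFIT5* 0.

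**Figure D1:**
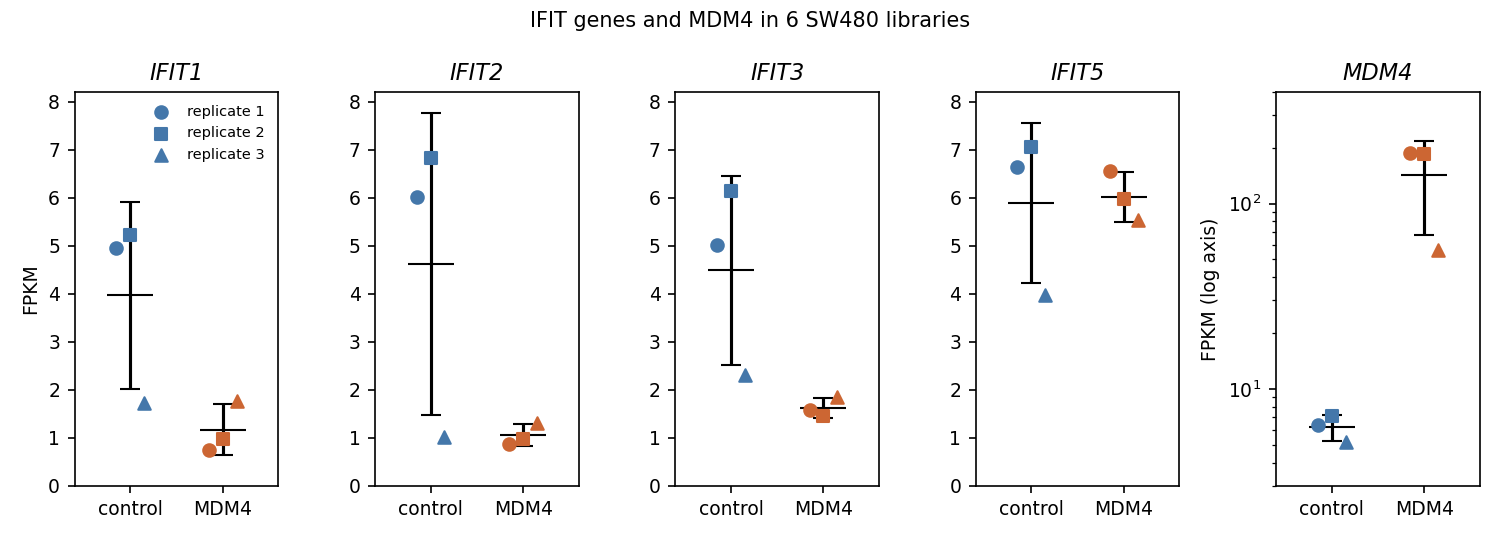
FPKM of *IFIT1*, *IFIT2*, *IFIT3* and *IFIT5* on linear axes and of *MDM4* on a log axis, with 1 point per library (circle, square and triangle for replicates 1, 2 and 3; blue for control, orange for MDM4) and bars for the mean and SD of 3 libraries. Control replicate 3 sits with the MDM4 libraries for *IFIT1* (1.73 FPKM) and *IFIT2* (1.02 FPKM), whereas the *IFIT5* groups overlap around 5.89 and 6.02 FPKM.

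By replicate number, the MDM4 library minus the control library was -2.58, -2.30 and 0.03 on the log2 scale for *IFIT1* in replicates 1, 2 and 3. For *IFIT2* the differences were -2.65, -2.68 and 0.33, for *IFIT3* -1.61, -2.01 and -0.31, and for *IFIT5* -0.02, -0.24 and 0.47. In all 4 members the difference in replicate 3 was the highest of the 3. The effect in replicate 3 minus that in replicates 1 and 2 was 2.46 for *IFIT1* (SE 0.32; limma, adjusted p = 0.00543). It was 2.999 for *IFIT2* (SE 0.30; limma, adjusted p = 0.00124). *IFIT3*, at 1.51 (SE 0.28; limma, adjusted p = 0.104), and *IFIT5*, at 0.60 (SE 0.21; limma, adjusted p = 1.0), did not pass. These 2 of 4 stand against 0.186% of all tested genes called higher in the interaction, in which replicate 3 contributes 1 library per group and the spread comes from replicates 1 and 2 alone. In lists described below, which share genes, 17 of 61 other interferon-stimulated genes and 2 of 7 STAT and IRF factors were also called higher. So were 1 of 9 nucleic acid sensors and adaptors and 0 of 9 interferon receptors and kinases. Without the filter on FPKM neither IFIT call held (adjusted p = 0.496 for *IFIT1* and 0.466 for *IFIT2* from limma), and with eBayes without trend that of *IFIT1* did not (adjusted p = 0.113 from limma).

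For *IFIT1*, *IFIT2* and *IFIT3*, replicate 3 was lower than replicates 1 and 2 in control cells and higher than them with MDM4. In control cells, the mean of replicates 1 and 2 was above replicate 3 by 6.31-fold for *IFIT2*, 2.94-fold for *IFIT1*, 2.41-fold for *IFIT3* and 1.73-fold for *IFIT5*. Among MDM4 libraries, replicate 3 was above the mean of replicates 1 and 2 by 2.04-fold for *IFIT1*, 1.41-fold for *IFIT2* and 1.23-fold for *IFIT3*, and *IFIT5* was at 0.883 of that mean. *MDM4* itself was at 0.301 of that mean in MDM4 replicate 3. Its level thus moved together with the smaller IFIT difference in replicate 3, and so did every other property in which replicate 3 differs. These cannot be told apart with 1 such library per group.

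**Figure D2:**
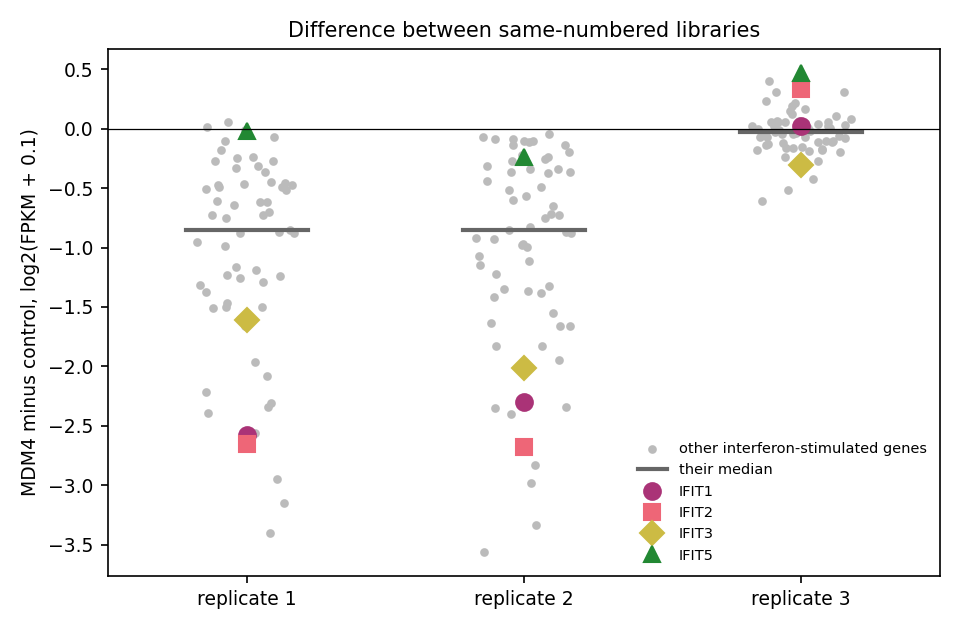
MDM4 library minus the control library of the same number, in log2(FPKM + 0.1), for replicates 1 to 3, with coloured symbols for the tested IFIT genes, grey points for the other interferon-stimulated genes tested and a bar at their median. *IFIT1* and *IFIT2* lie between -2.68 and -2.30 in replicates 1 and 2 and at 0.03 and 0.33 in replicate 3, and the medians of the grey points are -0.86, -0.85 and -0.02.

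Per length, the order of the members in control replicates 1 and 2 was *IFIT5*, *IFIT2*, *IFIT3* and *IFIT1*, within a narrow range of 4.95 to 7.05 FPKM. It was *IFIT5*, *IFIT3*, *IFIT1* and then *IFIT2* in control replicate 3, and over the 3 control libraries the ranges of neighbours in either order overlapped. In every MDM4 library *IFIT5* was highest, with a gap from 1.85 to 5.53 FPKM to *IFIT3*, and *IFIT1* and *IFIT2* were lowest, in ranges that overlapped each other. Summed over the family, the level was 22.6, 25.2 and 9.02 FPKM in control and 9.75, 9.37 and 10.4 FPKM with MDM4. Control replicate 3 had the lowest sum of all. The means were 19.0 ± 8.71 and 9.85 ± 0.544 FPKM (SD, n = 3 each), and the mean log2 of the sum differed by -0.81 (exact two-sided permutation test, p = 0.4). For scale, *GAPDH*, a glycolytic enzyme, was at 3549 ± 163 FPKM in control and 3467 ± 143 FPKM in MDM4 libraries (SD, n = 3 each), and in control replicate 1 the 4 members ranked above 30.3% to 36.9% of tested genes. In MDM4 replicate 1 *IFIT1* ranked above 4.9% and *IFIT5* above 36.6%.

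The shares of *IFIT1*, *IFIT3* and *IFIT5* in the sum separated the groups, which the share of *IFIT2* and the sum itself did not. How often shares within other gene sets would separate them was not tested. *IFIT5* gave 29.3%, 27.9% and 44.0% of the summed FPKM in control and 67.3%, 63.6% and 52.9% with MDM4. Every MDM4 library was above every control library, replicate 3 included (exact permutation test, p = 0.1, two-sided). The shares of *IFIT1* (19.1% to 21.9% in control, 7.65% to 16.8% with MDM4) and *IFIT3* (22.1% to 25.6% in control, 15.4% to 17.7% with MDM4) did not overlap either and were lower with MDM4 (exact permutation test, p = 0.1 each). That of *IFIT2* overlapped, since control replicate 3 was at 11.3% and MDM4 replicate 3 at 12.5% (exact permutation test, p = 0.2). Such shares move together, as they add up to 100. In replicate 3 *IFIT5* itself was 1.39-fold higher in the MDM4 library and *IFIT1* was not lower, so the lower share of *IFIT1* there is not a lower level.

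**Figure D3:**
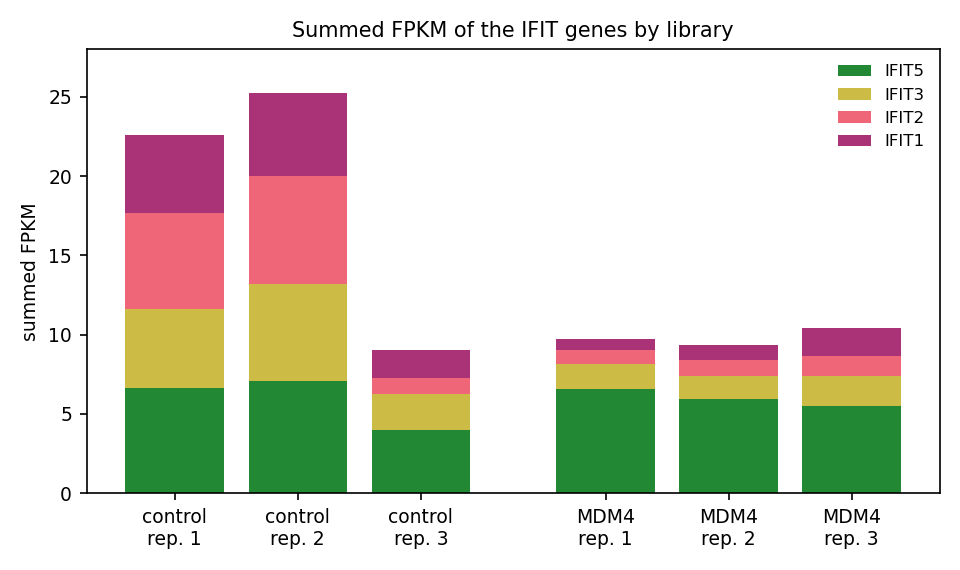
Summed FPKM of the 4 tested IFIT genes in each of the 6 libraries, from 0 on a linear axis, with a coloured part for each gene. The 2 tall bars are control replicates 1 and 2 at 22.6 and 25.2 FPKM, and the *IFIT5* part makes up 52.9% to 67.3% of each MDM4 bar against 27.9% to 44.0% of each control bar.

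Ratios between pairs of members do not depend on such a sum. The log2 ratio of *IFIT1* to *IFIT5* was -0.42, -0.43 and -1.20 in control and -3.14, -2.60 and -1.65 with MDM4. For *IFIT2* to *IFIT5* it was -0.14, -0.05 and -1.96 in control and -2.91, -2.60 and -2.08 with MDM4, and for *IFIT3* to *IFIT5* -0.41, -0.20 and -0.78 in control and -2.06, -2.05 and -1.58 with MDM4. In each of these 3 ratios all MDM4 libraries lay below all control libraries, with mean differences of -1.78, -1.81 and -1.43 (exact two-sided permutation tests, p = 0.1 each, the smallest possible). Of the 12883 other tested genes, 0.792% had a ratio to *IFIT5* that separated the groups in this way. The 3 ratios share *IFIT5* as denominator, and their numerators were high in the same libraries, so they are not separate lines of evidence. In replicate 3 the gap for *IFIT2* to *IFIT5* was small. There *IFIT1* and *IFIT2* themselves were not lower in the MDM4 library (log2 differences of 0.03 and 0.33), whereas *IFIT5* was higher (0.47). Their lower ratios in replicate 3 thus came from the denominator. Only *IFIT3* was itself lower there (-0.31), within overlapping counting intervals. The ratios among *IFIT1*, *IFIT2* and *IFIT3* overlapped between the groups, with exact permutation p = 0.9 for *IFIT1* to *IFIT2*, 0.4 for *IFIT1* to *IFIT3* and 0.4 for *IFIT2* to *IFIT3*. 6 ratios were compared, and with 3 against 3 libraries none could go below 0.1 before adjustment.

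Among all tested genes the 3 members were near the lower end of the fold changes. Over replicates 1 and 2 alone, *IFIT2* ranked 7th, *IFIT1* 11th and *IFIT3* 19th from the lowest log2 fold change among 12746 genes, and *IFIT5* ranked 2434th. Over all 6 libraries, in which none was called, the ranks among 12884 genes were 9, 11, 19 and 9424. The median of all tested genes was -0.01 in both comparisons.

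The pathway around the family is described next by lists of its parts, which were written with earlier results of these data known, and by comparisons that share the libraries above. Where voom is named for a list, it was fitted without the replicate block, and calls with the block were not counted by list. Of the interferon genes, which encode the ligands, 3 of 8 passed the filter over replicates 1 and 2, *IFNL1*, *IFNL2* and *IFNL3*, the type III interferons that act mainly on epithelia. All 3 did so only through the control libraries, in which they are high, so that they had to differ, and their calls as lower are no finding. *IFNL2* was at 1.31, 2.10 and 0 FPKM in control and at 0, 0 and 0.0412 FPKM with MDM4, from at most 55 reads. *IFNL3* was at 1.98, 2.22 and 0 FPKM in control and at 0.0854, 0 and 0.188 FPKM with MDM4, from at most 57 reads. These were seen above a few reads in the same 2 control libraries in which *IFIT1*, *IFIT2* and *IFIT3* were high. The 3 genes are close copies of each other, so reads may have been split between them. The 5 other ligands were too low to test. *IFNB1*, the type I interferon of most cell types, was at 0.196 FPKM or less in all libraries. *IFNE*, a type I interferon of epithelia that was chosen after its values were seen, was at 0.0606, 0.0761 and 0.303 FPKM in control and at 0.428, 0.488 and 0.533 FPKM with MDM4, from 4 to 26 reads. Every MDM4 library was above every control library, which a permutation test would only restate for a gene chosen by these values. Among the tested genes, which do not include *IFNE*, 3.1% had this separation.

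None of the receptors and kinases that carry the signal was called. 0 of 9 passed over replicates 1 and 2 with limma or voom, and 1 had an unadjusted p under 0.05 in limma, against 8.24% of all genes tested there. Their median log2 fold change was -0.10. *JAK1*, a kinase shared by the interferon receptors, was at 21.4, 24.4 and 25.9 FPKM in control and at 23.7, 22.4 and 27.9 FPKM with MDM4. *JAK2*, the kinase of the type II receptor, had a log2 fold change of 0.22 and *IFNGR2*, a chain of that receptor, one of -0.25, neither of which passed (adjusted p = 0.774 and 0.412 from limma).

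Among the STAT and IRF factors, 2 of 7 passed over replicates 1 and 2, both lower, against 0.282% of all genes called lower there. Over all 6 libraries 0 of 7 passed with limma or with voom without the replicate block (3 with an unadjusted p under 0.05 in limma, against 1.72% of all genes). *IRF9*, the DNA-binding partner of STAT factors at the ISRE, was at 19.6, 17.2 and 6.98 FPKM in control and at 3.798, 4.76 and 7.12 FPKM with MDM4. As for *IFIT1* and *IFIT2*, 2 control libraries were high and the third lay just under MDM4 replicate 3. It fell by 2.08 on the log2 scale over replicates 1 and 2 (SE 0.13; limma, adjusted p = 3.42e-06). *IRF7*, a factor that amplifies interferon transcription, fell by 1.19 in the same comparison (adjusted p = 3.87e-04 from limma). Over all 6 libraries *IRF9* was at -1.38 and *IRF7* at -0.82 (limma, adjusted p = 1.0 each), and in replicate 3 alone they were at 0.03 and -0.07. *IRF3*, which is present before any stimulus, had a log2 fold change of -0.20 over replicates 1 and 2 and did not pass (adjusted p = 0.635 from limma).

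Of the nucleic acid sensors and adaptors, 1 of 9 passed over replicates 1 and 2, against the same 0.282% of all genes called lower. It was *IFIH1*, which encodes the RNA sensor MDA5 and is itself induced by interferon, with a log2 fold change of -1.17 (adjusted p = 2.62e-04 from limma). *DDX58*, which encodes the sensor RIG-I, was at -0.92, short of the fold threshold (adjusted p = 0.00349 from limma). *MAVS*, their shared adaptor, and *TBK1*, the kinase downstream of it, were at 0.04 and 0.18 and did not pass. With all 6 libraries 0 of 9 passed with limma or with voom without the replicate block, and 2 had an unadjusted p under 0.05 in limma, against 1.72% of all genes. *IFIH1* was at -0.73 and *DDX58* at -0.60 over all 6 libraries (limma, adjusted p = 1.0 each), and in replicate 3 alone these were at 0.15 and 0.06. Among negative regulators of interferon signalling 1 of 7 passed over replicates 1 and 2, *USP18*, an interferon-induced protease that removes ISG15 and blocks the receptor, with a log2 fold change of -1.24 (adjusted p = 0.00401 from limma). *PTPN11* and *PTPN2*, phosphatase genes and the most abundant of that list, were at 0.17 and -0.06 and did not pass (adjusted p = 0.652 and 0.877 from limma). With all 6 libraries 0 of 7 regulators passed with limma or with voom without the replicate block, and 1 had an unadjusted p under 0.05 in limma, against 1.72% of all genes. *USP18* was at -0.84 over all 6 libraries (limma, adjusted p = 1.0), and in replicate 3 alone it was at -0.04.

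Genes of the cap and translation machinery met by IFIT proteins were also listed. Of the enzymes and binding proteins of the mRNA cap, which decide what IFIT1 can bind, 0 of 10 passed over replicates 1 and 2 with limma or voom, and 0 had an unadjusted p under 0.05 in limma, with a median log2 fold change of 0.06. *EIF4E2*, a cap-binding protein, was at -0.01 and *RNMT*, the cap guanine methyltransferase, at 0.17 (adjusted p = 0.985 and 0.68 from limma). *CMTR1*, the cap ribose methyltransferase, was at -0.20 and *RNGTT*, the capping enzyme, at 0.24 (adjusted p = 0.626 and 0.606 from limma). Of the eIF3 subunits, parts of the translation initiation factor to which IFIT1 and IFIT2 bind, 0 of 13 passed with either, and 1 had an unadjusted p under 0.05 in limma, with a median of -0.01, and *EIF3E*, the most abundant of them, was at 0.18 (adjusted p = 0.382 from limma). *EIF3B* was at -0.05 and *EIF3C*, which has a near-identical copy that may share its reads, at -0.28 (adjusted p = 0.859 and 0.711 from limma). The shares with an unadjusted p under 0.05 in both lists were no higher than the 8.24% of all genes.

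Other interferon-stimulated genes lay on the same side as *IFIT1*, *IFIT2* and *IFIT3*. Of 62 tested over replicates 1 and 2, 23 passed, all lower, against 0.282% of all genes tested there, and 62 had a log2 fold change below 0, against 52.3% of all genes. The median was -0.76. Of the 62 genes, 6 averaged under 0.5 FPKM in MDM4 replicates 1 and 2 and passed the filter through the control libraries, and 2 of the 23 calls were among these, whereas each tested IFIT gene was above 0.5 FPKM in every library. *IFIH1*, *IRF7*, *IRF9* and *USP18* are counted here as well as above. *IFI6*, a small membrane protein gene, was at 162, 170 and 21.3 FPKM in control and at 15.2, 16.7 and 19.6 FPKM with MDM4, a fall by 3.37 over replicates 1 and 2 (adjusted p = 3.83e-10 from limma). *XAF1*, an antagonist of the apoptosis inhibitor XIAP, fell by 3.35 (adjusted p = 2.14e-04 from limma). *IFITM3*, which blocks virus entry and was the most abundant, was at -0.96, short of the fold threshold (adjusted p = 4.16e-06 from limma), as was *LGALS3BP*, a secreted glycoprotein gene, at -0.50 (adjusted p = 0.00644 from limma). Over all 6 libraries 0 of 61 passed with limma or with voom without the replicate block. At an unadjusted p under 0.05 in limma there were 33, against 1.72% of all genes, and the median was -0.55. In replicate 3 alone the median difference was -0.02, with 33 of 61 below 0, against 6573 of all 12884 tested genes. The log2 fold changes of *IFIT1*, *IFIT2* and *IFIT3* over replicates 1 and 2 were below the median of this list, and that of *IFIT5* was nearer 0 than it.

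**Figure D4:**
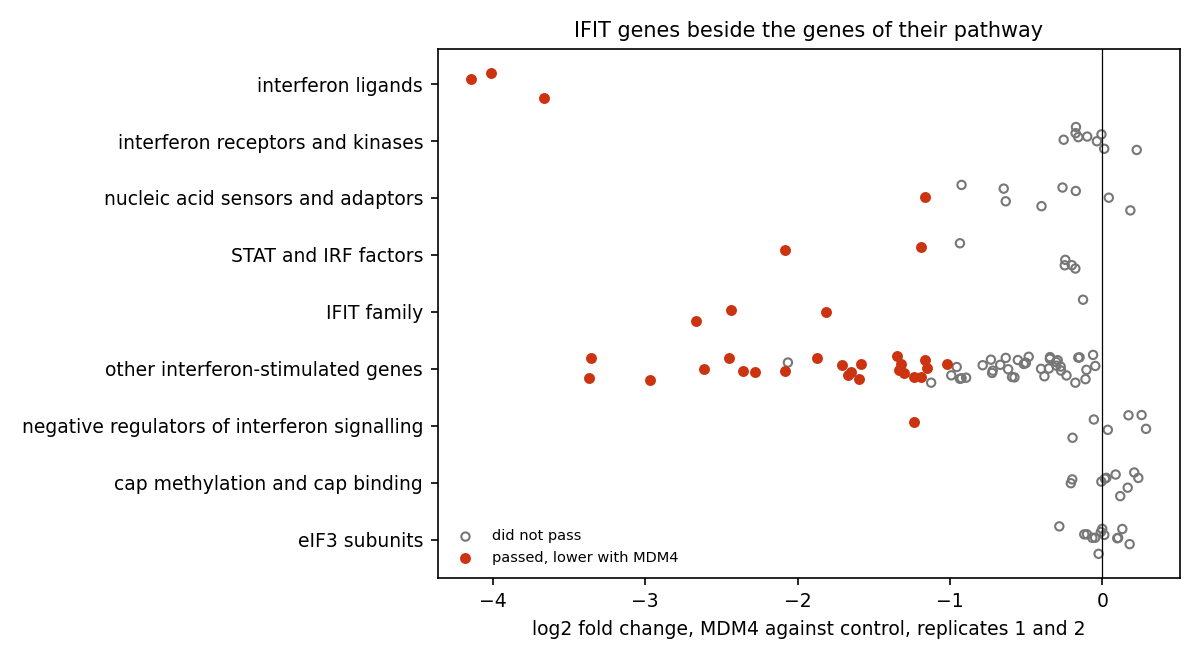
Log2 fold change of MDM4 against control over replicates 1 and 2 for the tested genes of each list, with 1 point per gene, filled red where it passed the test and open where it did not. 3 of 4 IFIT genes and 23 of 62 other interferon-stimulated genes are filled, and all filled points are on the lower side. The ligands shown passed the filter on FPKM only through the control libraries.

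Among the 10 genes whose pattern over the 6 libraries was most like the mean of the 4 tested IFIT genes on the log2 scale were *OAS1* (Pearson r = 0.999), *PLSCR1* (0.998), *OAS3* (0.998), *MX1* (0.995), *IFI6* (0.994), *PARP9* (0.993), *IFNL2* (0.992), *PRR5L* (0.990) and *PARP12* (0.989). OAS enzymes make the second messenger that activates RNase L, MX1 is an antiviral GTPase, and PARP9 and PARP12 belong to the ADP-ribosyltransferase family. Of the named genes, *IFNL2* and *PRR5L* are not in the list of other interferon-stimulated genes. *IFNL2* passed the filter on FPKM only through control replicates 1 and 2, so its high r is no finding. The protein of *PRR5L* associates with mTORC2. An r over 0.95 was reached by 42 of 12880 genes (0.326%) and by 25 of the 61 list genes. These are descriptions over 6 libraries, of which 2 are high and 4 low, so that r mainly reads the difference between control replicates 1 and 2 and the rest. *OAS1* was at 13.4, 15.4 and 4.03 FPKM in control and at 2.80, 2.96 and 4.23 FPKM with MDM4, the order of libraries that *IFIT1* showed.

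Genes outside the family were also grouped by the number of ISRE cores in their promoter windows. Of 34 tested genes with at least 2 copies, as *IFIT1*, *IFIT3* and *IFIT5* have, 8 were called lower over replicates 1 and 2 (23.5%), with a median log2 fold change of -0.17. With 1 copy it was 8 of 334 genes (2.40%) and without a copy 10 of 9534 (0.105%), with medians of -0.01 in both. For genes with at least 2 copies the median was -0.15 over all 6 libraries, where 0 of all genes were called, and -0.02 in replicate 3 alone. 13 of the 34 genes are in the list of other interferon-stimulated genes, so the groups are not independent of the lists above. *IFIT5*, which has 3 copies in its 1 window, was not called.

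None of the tested genes around the cluster was called over replicates 1 and 2. Of all 12746 genes tested there 0.282% were called lower, so the absence of a call in a few neighbours says little about the neighbourhood. *LIPA*, on the opposite strand across 4 of the 5 members, was at 17.6, 19.7 and 21.7 FPKM in control and at 17.2, 17.9 and 20.0 FPKM with MDM4, a log2 fold change of -0.09 over replicates 1 and 2 (adjusted p = 0.835 from limma). Whether strand was used in counting is not given in the sources used here, so reads of *LIPA* and of an IFIT gene in shared exons could not be told apart. Of the nearest protein-coding genes, *FAS*, a death receptor gene 267.9 kb to the left, *ACTA2*, an actin gene at 292.4 kb, and on the right *PANK1* at 158.5 kb and *KIF20B* at 280.6 kb had log2 fold changes of 0.05, -0.02, -0.14 and 0.11 over replicates 1 and 2, and none passed (adjusted p from 0.843 to 0.976 in limma). *CH25H* and *SLC16A12*, the closest on either side, were below the 0.5 FPKM needed for testing.

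Markers of cell types were read in the same libraries. Of 8 colon epithelial markers 7 reached a mean of 0.5 FPKM, with *KRT8*, a keratin, the most abundant at a mean of 1726 FPKM and *EPCAM*, an adhesion molecule, at 156 to 167 FPKM, and *CDX1* was at or near 0. Their sum was 4901, 4548 and 4544 FPKM in control and 4519, 4424 and 4221 FPKM with MDM4. Of the 7, 6 had a log2 fold change below 0 over replicates 1 and 2, with a median of -0.07, and 0 passed with limma or voom. *VIL1*, an actin-binding protein of the brush border, was the most changed, at -0.62 there and -0.54 over all 6 libraries (limma, adjusted p = 0.186 and 1.0). The groups did not overlap in 3 of the 7, lower with MDM4 in 2 and higher in 1, against 3.76% and 3.1% of all tested genes. Of 10 myeloid markers 3 reached 0.5 FPKM, with sums from 5.99 to 7.39 FPKM, of which *CD68*, a lysosomal protein also made by other cells, was the largest at a mean of 4.59 FPKM, and *PTPRC*, the pan-leukocyte marker, was at or under 0.0142 FPKM in all libraries. *LYZ*, which encodes lysozyme, was at 0.959, 0.759 and 0.869 FPKM in control and at 0.380, 0.380 and 0.938 FPKM with MDM4. Its log2 fold change was -0.99 over replicates 1 and 2 (limma, adjusted p = 0.258; unadjusted p = 0.00361) and 0.10 in replicate 3. For plasmacytoid dendritic cells, a main source of interferon, 1 of 5 markers reached 0.5 FPKM (*GZMB*, mean 0.918 FPKM), the sums were 1.33, 1.47 and 0.966 FPKM in control and 1.21, 0.728 and 0.766 FPKM with MDM4, highest in the control libraries in which *IFIT1*, *IFIT2* and *IFIT3* were high, and *CLEC4C* was at 0 in all 6 libraries. *GZMB*, which encodes granzyme B, rested on 16 to 55 reads and had a log2 fold change of -0.56 over replicates 1 and 2 and -0.62 over all 6 libraries (limma, adjusted p = 0.604 and 1.0). For fibroblasts it was 1 of 8 (*COL1A1*, mean 2.55 FPKM), with *FAP* at 0 in all libraries. Their sum was 3.94 FPKM in replicate 3 of both groups against 1.75 to 2.46 FPKM in the others, and the part of this and of the other marker differences in the IFIT levels was not tested. In bulk RNA, fewer cells with IFIT transcripts and less IFIT RNA per cell cannot be told apart.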

How the data were processed

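Oligo(dT)-selected RNA of SW480 cells, 3 control and 3 MDM4 libraries, was sequenced by Illumina HiSeq2000. The authors deposited FPKM for 19225 gene symbols. The aligner, the annotation and the test used are not given in the sources used here. The columns carry a letter and a number, read as the group and the replicate number. The labels call the group that is not control exercised, and no further group exists, so it was taken to be MDM4. *MDM4* was higher in each of its libraries.

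Whole reads were recovered from the FPKM steps, with the shortest whole-number gene length that gave whole reads (a lower limit for genes seen in 1 library), for 17189 of 17189 genes above 0 (100%, within 0.002 reads; on simulated data 97.1% of 2961 genes), and served for depth, counting intervals and voom. Genes averaging 0.5 FPKM or more, 12884 in number (12746 for replicates 1 and 2 alone), entered linear models of log2(FPKM + 0.1), using lmFit and trended eBayes of limma 3.58.1 under R 4.3.3. Adjustment was by Benjamini-Hochberg over all genes tested. Calls needed an adjusted p below 0.05 and a log2 change beyond 1 in either direction, and interaction calls the adjusted p alone. Log2 changes of 3 simulated in 200 of 12884 genes were recovered in 197 over 6 libraries (12 false calls), 194 over replicates 1 and 2 (4 false) and 177 for the interaction (2 false). The simulated spread was independent between libraries, without the shared shift of replicate 3, so these numbers do not say what the test over 6 libraries could call in the data, where it called 0 genes. Tests of single values were exact permutations, two-sided, from scipy 1.17.1. Python 3.11.15, numpy 2.4.6, pandas 2.3.3 and matplotlib 3.10.9 made the tables and plots.

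Same-numbered libraries of both groups deviated from their group means together (r = 0.46, 0.45 and 0.78 across genes in replicates 1 to 3), so the numbers were taken to pair the libraries. Replicates 1 and 2 correlated crosswise about as much (0.46 and 0.44), and replicate 3 went against them (-0.62 to -0.56). These values show replicate 3 apart in both groups. They cannot show that replicates 1 and 2 are paired by number, so that pairing is an assumption. Promoter sequences are RefSeq's (GRCh38.p14); gene positions are GENCODE's, release 29. The 5 IFIT genes and *MDM4* are named throughout. Pathway genes are named, up to 4 a list, from the 2 most abundant and the 2 most changed of each, and others as the nearest neighbours, the 10 most alike in pattern, or markers. *IFNL1*, *IFNB1* and *IFNE* were chosen after their values were seen. The members and the lists were chosen with earlier results of these data known. Protein sequences were not analysed here. 1 further gene that the naming rule selects is not reported here.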

Additional observations from a re-analysis of the deposited data

Results flagged for a closer look

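Among the tested IFIT genes and *MDM4*, 3 passed the limma interaction term for the MDM4 effect in replicate 3 against replicates 1 and 2, adjusted over 12884 genes. They were not alone in this. Of all tested genes 24 were called higher in the interaction and 1 lower, and 17 of the other interferon-stimulated genes were called higher. For *IFIT2* the difference was 2.999 on the log2 scale (adjusted p = 0.00124), from -2.65 and -2.68 in replicates 1 and 2 to 0.33 in replicate 3. For *IFIT1* it was 2.46 (adjusted p = 0.00543), from -2.58 and -2.30 to 0.03. For *MDM4* it was -1.35 (adjusted p = 0.00166), as the excess in replicate 3 was 10.96-fold against 29.7-fold and 26.1-fold in replicates 1 and 2. Replicate 3 is 1 library per group, so the spread in these tests comes from replicates 1 and 2 alone. Without the filter on FPKM none of the 3 passed (limma adjusted p = 0.466 for *IFIT2*, 0.496 for *IFIT1* and 0.466 for *MDM4*), and with eBayes without trend *IFIT1* (0.113) and *MDM4* (0.198) did not.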

How the results depend on the processing

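Among the 4 tested IFIT genes, the count called over all 6 libraries was 0 under 16 of 19 alternatives. It was 3 over replicates 1 and 2 alone and 2 (*IFIT2* and *IFIT3*) with voom on recovered reads and the replicate block, and it ranged from 0 to 2 with 1 library left out, the 2 being *IFIT2* and *IFIT3* without control replicate 3 (adjusted p = 0.00784 and 0.0233 from limma). With limma on log2 FPKM the replicate block, or pairing by number, changed no IFIT call. The count of all genes called, 0, became 2 with the block, 2 with a batch term for replicate 3, 37 over replicates 1 and 2 alone and 15 with voom and the block, and it ranged from 0 to 16 with 1 library left out (16 without control replicate 3, 1 without MDM4 replicate 3). Over replicates 1 and 2 alone, *IFIT1*, *IFIT2* and *IFIT3* were called under all 11 alternatives, and the 37 genes numbered 63 with the replicate block, which leaves 1 residual degree of freedom. The 2 interaction calls became 1 (*IFIT2*) with eBayes without trend and 0 without the filter on FPKM, where 0 of all genes were called. With 1 library of replicates 1 and 2 left out, 1 group kept a single library of these, so effect sizes alone are given. The interaction terms were then 2.29 to 2.64 for *IFIT1*, 2.91 to 3.09 for *IFIT2* and 1.36 to 1.65 for *IFIT3*. The log2 fold change of *IFIT5*, 0.07, turned to -0.13 over replicates 1 and 2 alone and to -0.19 without control replicate 3 (-0.19 to 0.22 with 1 library left out). Otherwise directions were kept, with ranges over 19 alternatives of -2.44 to -1.13 for *IFIT1*, -2.67 to -1.20 for *IFIT2* and -1.81 to -0.996 for *IFIT3*, and over 10 of -1.32 to -0.54 for the difference in mean log2 summed FPKM. The causes were not tested. Counts of 111 to 151 reads for *IFIT2* in the low libraries limit differences among these.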
